A study of Homo sapiens with 17 samples.

Results

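The peak lists of the histone variant H2A.Z (spelled H2AZ below) were compared between cells of the Si1235 arm and cells of the NC1235 arm. The members were all peaks of the 4 H2AZ libraries, 2 per arm, and they were chosen by the antibody and the arm named in the labels. They numbered 189269 of the 917895 peaks in the 15 lists of the series. The Si1235 lists held 48704 and 42764 peaks, and the NC1235 lists held 51239 and 46562. Every library came from HCC1954, an established HER2-positive breast cancer cell line that grows in culture. All cells had been transfected with antisense oligonucleotides and were fixed 72 h later with formaldehyde for chromatin immunoprecipitation and sequencing (ChIP-seq). The labels give the oligonucleotide arm only as Si1235 or NC1235, and LINC01235, a long non-coding RNA, appears in the title of the series. The arms keep their label names because the labels do not spell them out, and no RNA measurement was at hand to check the level of LINC01235. A single cell line was used, and nothing states that replicates came from separate cultures. The p-values below therefore measure the spread between libraries only, and that spread may be technical.

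H2A.Z replaces the canonical histone H2A in a minority of nucleosomes. It is put in place by the SRCAP and EP400 complexes, and it is known for nucleosomes that flank the nucleosome-depleted gap at active and poised promoters, above all the first nucleosome downstream of the start. It also marks enhancers, and it has been tied to the choice of replication origins. HCC1954 carries an amplified ERBB2 gene, whose promoter window was covered in all 4 libraries, by 93.5% and 94.2% in Si1235 and 90.6% and 92.6% in NC1235. The window of MKI67, a gene of dividing cells, was covered to 100% in all 4. LINC01235 had no start that could be placed here.

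A value called cover below is the percent of a window's bases that lay inside peaks. It records where peaks reached and not how much H2AZ they held. The lists give no read totals. The genome-wide background that the peak caller used, solved from the deposited values of weak peaks, was 1.192 and 0.765 reads per position in Si1235 replicates 1 and 2 and 1.202 and 0.808 in NC1235 replicates 1 and 2. Replicate number thus went with this indirect measure of depth, and so libraries of the same number are also compared with each other. With 2 libraries against 2, an exact two-sided permutation test cannot give a p below 0.333, so no single value could pass 0.05.

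The promoters below are shown because they had the widest gap between the arms in their direction among protein-coding genes, with H2AZ peaks reaching over more of the first pair and less of the second pair in Si1235. Each run is the 250 bases before the gene start, 5′ to 3′ on the gene's own strand, from the RefSeq promoter table (GRCh38.p14). In the first pair the capitals mark CpG dinucleotides. KITLG (chr12:88580472-88580721, minus strand) has 26 of them and UBTF (chr17:44220883-44221132, minus strand) has 33.
KITLG: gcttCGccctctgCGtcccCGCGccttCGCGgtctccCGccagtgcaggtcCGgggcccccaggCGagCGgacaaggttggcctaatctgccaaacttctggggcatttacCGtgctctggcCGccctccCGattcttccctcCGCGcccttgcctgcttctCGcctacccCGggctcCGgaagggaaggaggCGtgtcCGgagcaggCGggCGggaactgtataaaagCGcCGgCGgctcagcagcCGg
UBTF: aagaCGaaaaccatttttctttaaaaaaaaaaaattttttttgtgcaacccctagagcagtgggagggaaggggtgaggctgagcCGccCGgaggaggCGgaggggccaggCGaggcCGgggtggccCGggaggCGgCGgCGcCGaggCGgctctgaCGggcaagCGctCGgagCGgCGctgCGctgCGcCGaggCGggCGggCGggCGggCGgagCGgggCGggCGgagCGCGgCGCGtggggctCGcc
In the second pair the capitals mark matches to GAAA, any 2 bases and GAAA, or to the reverse complement (TTTC, any 2 bases and TTTC), the core of the element that interferon-activated factors bind. IFI44 (chr1:78649539-78649788, plus strand) has 0 CpG and 1 match, and SAMD9 (chr7:93117980-93118229, minus strand) has 3 CpG and 1 match.
IFI44: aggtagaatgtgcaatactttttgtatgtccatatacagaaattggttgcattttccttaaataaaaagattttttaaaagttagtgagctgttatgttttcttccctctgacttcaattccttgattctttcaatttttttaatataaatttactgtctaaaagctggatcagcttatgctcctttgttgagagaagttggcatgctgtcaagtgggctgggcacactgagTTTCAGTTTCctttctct
SAMD9: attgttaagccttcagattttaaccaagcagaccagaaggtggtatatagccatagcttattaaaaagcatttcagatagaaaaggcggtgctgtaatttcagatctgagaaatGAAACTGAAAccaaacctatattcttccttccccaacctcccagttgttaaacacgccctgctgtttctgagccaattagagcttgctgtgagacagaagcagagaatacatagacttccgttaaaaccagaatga

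H2AZ took a larger share of its covered bases at promoters and a smaller share between genes in Si1235 than in NC1235, within each replicate number. The genome was divided into promoters (1 kb each side of a gene start), promoter flanks (from there to 5 kb), the rest of gene bodies, and intergenic DNA. Promoters held 42.6% and 47.6% of the covered bases in Si1235, against 40.6% and 44.3% in NC1235. The arms overlapped, but the Si1235 library was higher by 1.95 percentage points in replicate 1 and by 3.34 in replicate 2. Flanks held 12.6% and 11.9% in Si1235, against 11.9% and 11.4% in NC1235. Gene bodies held 21.5% and 19.6% in Si1235, against 22.5% and 21.0% in NC1235. Intergenic DNA held 23.3% and 20.9% in Si1235, against 25.0% and 23.3% in NC1235, and here each Si1235 value was below each NC1235 value. The intergenic means were 22.1% ± 1.70 in Si1235 and 24.1% ± 1.20 in NC1235 (SD, n = 2 each), a difference of -2.06 points at p = 0.333 by the exact permutation test, its smallest possible value.

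**Figure D1:**
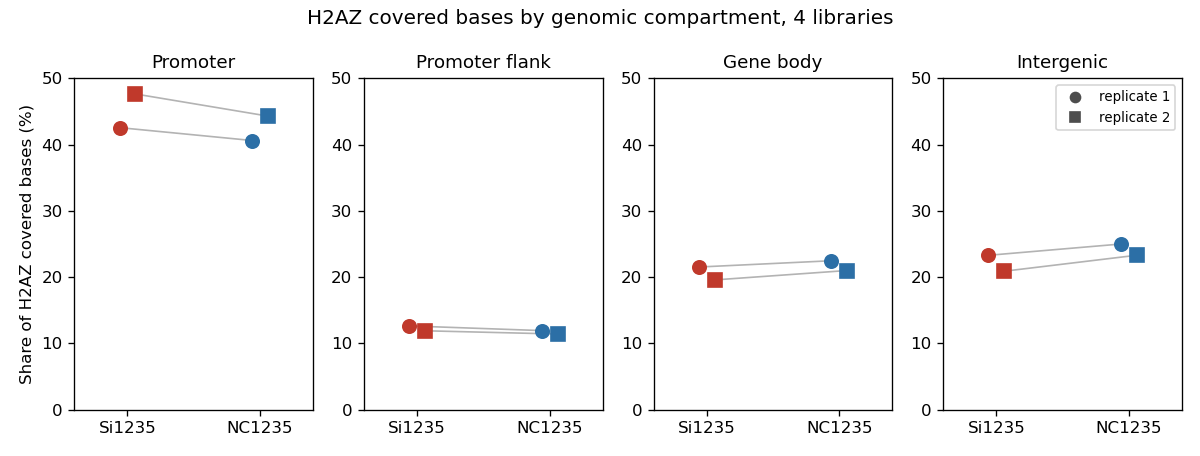
Share of all H2AZ covered bases that fell in each of 4 genomic compartments, 1 point per library, with grey lines joining libraries of the same replicate number. The promoter points are higher and the intergenic points lower in Si1235 than in NC1235 of the same number.

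In absolute length, the promoter cover was 19.1 and 17.0 Mb in Si1235 and 18.5 and 16.7 Mb in NC1235. Intergenic cover was 10.4 and 7.47 Mb in Si1235 and 11.4 and 8.80 Mb in NC1235. Within replicates 1 and 2, the promoter length of Si1235 was greater by 3.04% and 1.92%, while the intergenic length differed by -8.38% and -15.0%. Flank cover was 5.65 and 4.25 Mb in Si1235 and 5.43 and 4.30 Mb in NC1235. It differed by 4.18% in replicate 1 and -1.16% in replicate 2, so its sign was not the same in both. Cover of gene bodies came to 9.63 and 7.001 Mb in Si1235 and to 10.2 and 7.92 Mb in NC1235. The total covered length was 44.8 and 35.8 Mb in Si1235 and 45.5 and 37.7 Mb in NC1235.

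Promoter peaks were about equal in number between the arms but wider in Si1235 within each replicate number, whereas intergenic peaks were fewer and of nearly equal width. There were 13851 and 14300 promoter peaks in Si1235, against 13948 and 14466 in NC1235. Their median width was 1519 and 1260 bp in Si1235, against 1441 and 1213 bp in NC1235. Intergenic peaks numbered 15466 and 12453 in Si1235 and 16816 and 14433 in NC1235. Their median width was 530 and 469 bp in Si1235 and 537 and 481 bp in NC1235. Peaks in the rest of gene bodies numbered 14314 and 11626 in Si1235 and 15305 and 13014 in NC1235, with medians of 527 and 465 bp in Si1235 and 526 and 475 bp in NC1235. Over all peaks, the median width differed little, at 689 and 623 bp in Si1235 and 678 and 611 bp in NC1235. Peaks of at least 2000 bp made up 7.83% and 5.50% of the Si1235 lists and 6.62% and 4.64% of the NC1235 lists.

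The deficit of peaks in Si1235 was greater with each step away from gene starts. Within 1 kb of a start the number of peaks differed by -0.69% in replicate 1 and by -1.14% in replicate 2. From 5 to 20 kb the changes were -3.36% and -8.71%, and from 50 to 100 kb they were -9.78% and -14.5%. From 100 to 500 kb there were 5024 and 3978 peaks in Si1235 and 5847 and 4972 in NC1235, a difference of -14.1% and -19.99%. Beyond 500 kb there were 414 and 328 peaks in Si1235 and 524 and 461 in NC1235, a difference of -21.0% and -28.9%. The share of peaks farther than 100 kb from any start was 11.2% and 10.1% in Si1235 and 12.4% and 11.7% in NC1235, and the arms did not overlap.

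**Figure D2:**
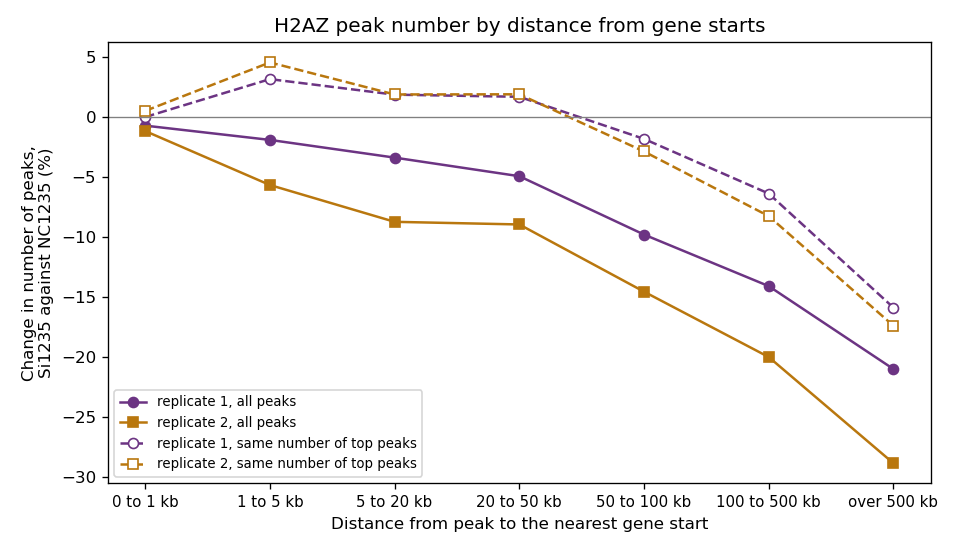
Difference in the number of H2AZ peaks between Si1235 and NC1235, in percent of NC1235, by distance from the nearest gene start, for each replicate number. Filled points use all peaks and open points the same number of top peaks in every library. With all peaks the difference goes to -21.0% and -28.9% beyond 500 kb, and with equal numbers of peaks to -15.9% and -17.4%.

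Peak number and depth went with this pattern, and values for both stand here. The background level of Si1235 was below that of NC1235 within each number, with a difference of -0.01 reads per position in replicate 1 and -0.043 in replicate 2. Replicate 2 of Si1235, of lower background than its replicate 1, had 3.24% more peaks within 1 kb. From 5 to 500 kb it differed from replicate 1 by -18.5% to -20.8%, and beyond 500 kb by -20.8%. The same differences between replicates of NC1235 were 3.71% within 1 kb, -13.7% to -15.0% from 5 to 500 kb, and -12.0% beyond. When the 42759 peaks ranked highest by −log10 p-value were taken from every library, Si1235 had 0.03% and 0.54% more peaks than NC1235 within 1 kb. At 1 to 5 kb it then had 3.19% and 4.58% more, so that the sign there was the reverse of that with all peaks. From 5 to 50 kb the sign was reversed too, at 1.72% to 1.93%. From 100 to 500 kb the differences were -6.35% and -8.24%, and beyond 500 kb -15.9% and -17.4%. The part of depth in the differences that remained was not tested.

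The same pattern appeared over whole megabases, where windows with few genes were less covered in Si1235 and windows with many genes were not. Of 2151 windows of 1 Mb, each Si1235 value exceeded each NC1235 value in 25 (1.16%) and was below each in 252 (11.7%). Windows were grouped by the number of coding genes whose lower-coordinate end, here called the left end, they held. Strand was not used in this count, so a left end is not always a gene start. Among the 72 windows without a left end, 32 (44.4%) lay lower in Si1235. The covered bases of these 72 differed by -14.8% in replicate 1 and -21.6% in replicate 2. In the 510 windows with 1 to 3 left ends the share lying lower was 23.3%. In the 929 windows with 4 to 9 it was 9.90%, and in the 427 windows with 10 to 19 it was 1.87%. Of the 213 windows with at least 20 left ends, 1 (0.47%) lay lower, and covered bases were greater in Si1235 by 4.66% and 2.14%. In those gene-rich windows replicate 2 differed from replicate 1 by -18.9% in Si1235 and -16.9% in NC1235. In the windows without a left end it differed by -26.6% and -20.4%. With the same number of top peaks from every library, 112 windows lay higher and 307 lower. Windows without a left end then differed by -10.6% and -15.8%, and those with at least 20 by 5.76% and 3.91%.

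**Figure D3:**
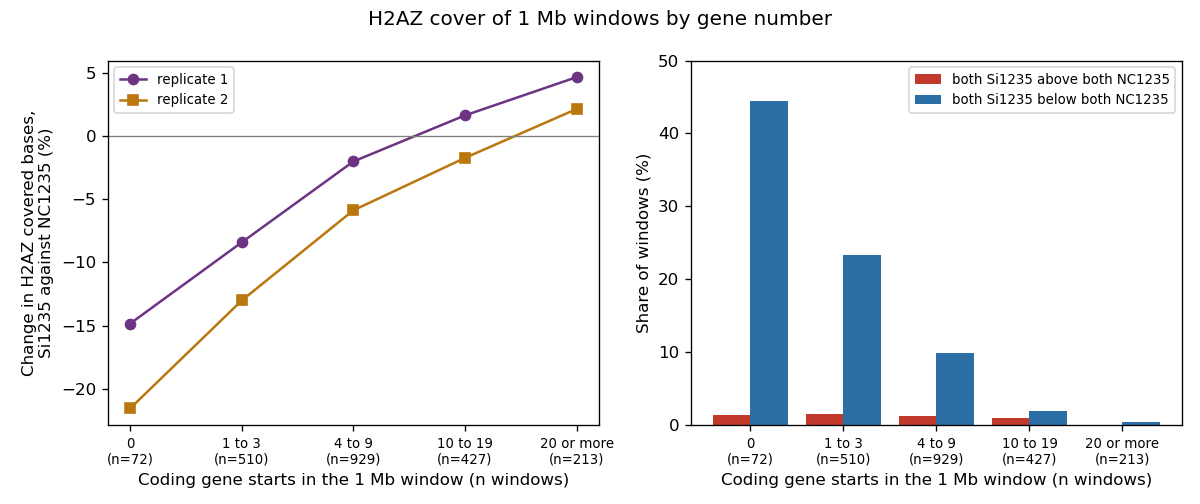
Windows of 1 Mb grouped by the number of coding genes whose lower-coordinate end (left end) they hold. The axis names these ends coding gene starts, although strand was not used. Left, difference in H2AZ covered bases between Si1235 and NC1235 for each replicate number. Right, percent of windows in which both Si1235 values lay above or below both NC1235 values. The share lying lower is 44.4% in windows with no left end and 0.47% in windows with 20 or more.

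Whole chromosomes differed as well. Cover was greater in Si1235 within both replicate numbers on chromosomes 16, 17, 19 and 22, with the differences on chromosome 19 at 6.13% and 3.89% and on chromosome 22 at 8.44% and 3.55%. Chromosome 19 had 1.96 and 1.57 Mb covered in Si1235 and 1.85 and 1.51 Mb in NC1235. On chromosome 4 the differences were -5.06% and -10.9%, on chromosome 13 they were -5.68% and -10.6%, on chromosome 18 they were -5.76% and -9.38%, and on the X chromosome they were -5.39% and -9.52%. Chromosomes 17, 19 and 22 are known as gene-rich and chromosomes 4, 13 and 18 as gene-poor.

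The 1 Mb window with the widest gap on the lower side was chr8:107000001-108000000. It holds the left ends of 2 coding genes, ANGPT1 (a ligand of the endothelial receptor TIE2) and RSPO2 (a secreted enhancer of Wnt signalling). Peaks covered 1.91% and 1.77% of it in Si1235, against 3.71% and 3.26% in NC1235. Next came the neighbouring windows chr5:27000001-28000000 and chr5:28000001-29000000, a stretch around CDH9 (a cadherin) with hardly any genes. Their cover was 2.27% and 1.83%, and 2.44% and 2.14%, in Si1235, against 3.27% and 3.29%, and 3.65% and 3.12%, in NC1235. The window chrX:31000001-32000000 holds the left ends of FTHL17 and DMD (dystrophin). It was covered by 2.55% and 2.28% in Si1235 and by 3.53% and 3.06% in NC1235. On the higher side stood chr12:88000001-89000000 with KITLG, at 2.48% and 1.69% in Si1235 and 1.26% and 1.29% in NC1235, and chr11:96000001-97000000 with MAML2 (a Notch coactivator), at 2.42% and 1.82% in Si1235 and 1.53% and 1.24% in NC1235.

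At the finer scale of 14662 windows of 100 kb, limma called 0 windows (0.00%) at a Benjamini-Hochberg adjusted p under 0.05, while 215 were higher and 704 lower in Si1235 at an unadjusted p under 0.05. The arms did not overlap in 1783 windows higher in Si1235 (12.2%) and in 2789 lower (19.0%). The lower windows with the widest gaps were chr8:107200001-107300000 in ANGPT1, at 5.12% and 5.04% in Si1235 and 9.41% and 8.57% in NC1235, and chr12:40300001-40400000 with LRRK2 (a kinase known from Parkinson disease) and MUC19 (a mucin), at 5.04% and 4.84% in Si1235 and 8.55% and 8.09% in NC1235. The window chr1:20600001-20700000, with CDA, PINK1, DDOST and KIF17, had 4.32% and 4.10% in Si1235 and 8.57% and 6.98% in NC1235. The higher window with the widest gap was chr22:46000001-46100000, which holds the host gene of let-7b, MIRLET7BHG, at 12.6% and 13.1% in Si1235 and 9.07% and 7.50% in NC1235. The window chrX:22100001-22200000 in PHEX (a phosphate-regulating endopeptidase) had 9.08% and 7.83% in Si1235 and 4.90% and 4.35% in NC1235.

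Around coding gene starts, cover in Si1235 was higher at the outer edges of the promoter peak and about equal at its crest. The crest lay 100 to 200 bp into the gene, where peaks covered 62.3% and 59.8% of 15811 coding starts in Si1235 and 61.6% and 59.2% in NC1235. A shallow gap lay just upstream of the start, deeper in the replicate 2 libraries, at 50.1% in Si1235 and 49.9% in NC1235 in the bin from 200 to 100 bp upstream. Downstream, the difference between arms was greatest in replicate 1 at 800 to 900 bp, where cover was 33.3% in Si1235 and 30.3% in NC1235, or 3.01 points. In replicate 2 it was greatest at 700 to 800 bp, with 35.4% in Si1235 and 33.3% in NC1235, or 2.10 points. Upstream, the greatest difference lay at 900 to 800 bp in both numbers, at 1.96 and 1.13 points.

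**Figure D4:**
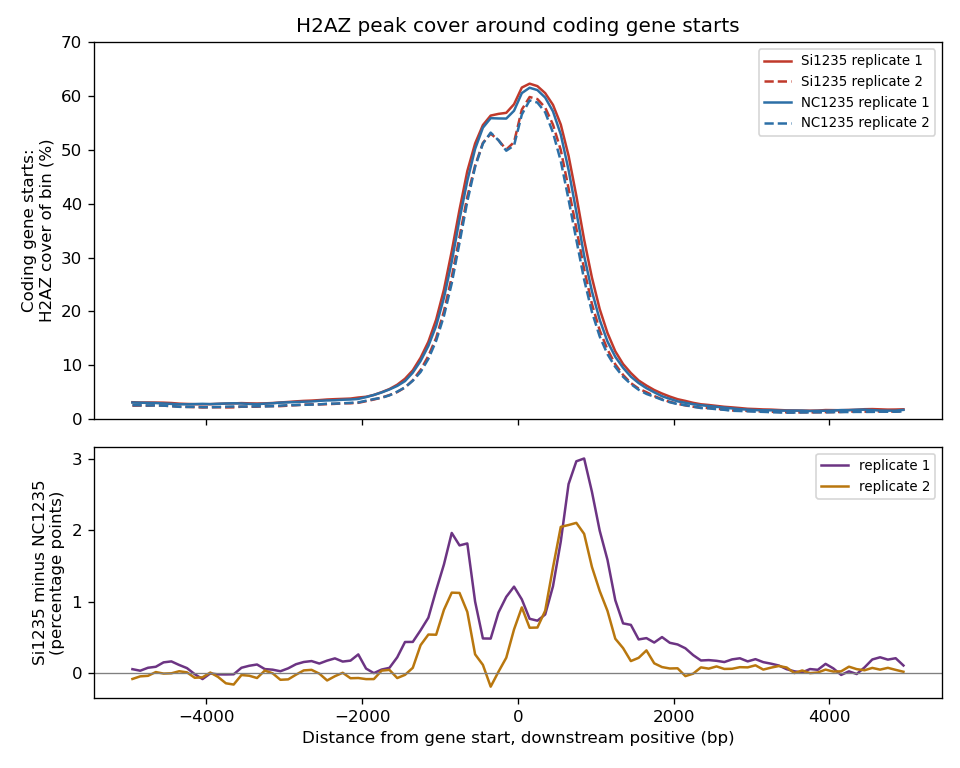
Above, percent cover by H2AZ peaks in 100 bp bins around 15811 coding gene starts in each library. Below, Si1235 minus NC1235 in percentage points for each replicate number, with its highest values 700 to 900 bp downstream (3.01 and 2.10 points) and a lower rise 900 to 800 bp upstream (1.96 and 1.13 points).

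In 9100 coding genes a peak lay over the base 150 bp into the gene in all 4 libraries, and the ends of that peak could be followed. Its downstream end lay at a median of 859 and 793 bp in Si1235 and 826 and 768 bp in NC1235. The median shift per gene was 27 bp outward in replicate 1 and 17 bp in replicate 2. The end lay farther out in both numbers in 37.2% of genes and farther in within both in 20.04%. Its upstream end lay at -805 and -695 bp in Si1235 and -776 and -680 bp in NC1235, with median outward shifts of 19 and 8.5 bp. Replicates of an arm differed more than this, so the shift shows only between libraries of like depth.

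The start itself lay under a peak in 11529 and 10371 of 18326 coding genes in Si1235, against 11300 and 10210 in NC1235. It lay in a break between peaks on both sides, the form a nucleosome-depleted gap takes in a peak list, in 381 and 1046 genes in Si1235 and in 487 and 1109 in NC1235. In 251 genes of replicate 1 and 458 of replicate 2 the break of the NC1235 library was bridged in Si1235, and in 126 and 376 genes the break stood in Si1235 and was bridged in NC1235. No peak lay within 1 kb in 5454 and 5735 coding genes in Si1235 and in 5494 and 5778 in NC1235.

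Of the merged regions, 31130 held a peak in all 4 libraries, and these kept regions were more often wider at promoters, and more often narrower in gene bodies and between genes, in Si1235. Among the 12505 kept promoter regions, 38.1% were wider in Si1235 within both replicate numbers and 20.2% were narrower within both. Their median covered width was 1599 and 1447 bp in Si1235 and 1541 and 1399 bp in NC1235. Among the 8305 intergenic regions, 23.9% were wider and 35.95% narrower within both, with medians of 789 and 625 bp in Si1235 and 827 and 694 bp in NC1235. The 7533 gene body regions lay between, with 26.2% wider and 32.6% narrower. The regions were also split by the enhancer and promoter mark H3K27ac. Promoter regions with H3K27ac in none of its 4 libraries had median log2 width ratios of 0.06 and 0.04 in replicates 1 and 2, and intergenic regions with none had -0.06 and -0.11. With H3K27ac in all 4 the promoter medians were 0.05 and 0.03 and the intergenic ones -0.02 and -0.07. Gene body regions had medians of -0.03 and -0.07 without H3K27ac, and of 0.0052 and -0.04 with it in all 4, so there the sign differed between the replicate numbers. For single regions limma called 0 (0.00%) at an adjusted p under 0.05, with 886 wider and 1090 narrower at an unadjusted p under 0.05. The arms did not overlap in 18.2% of regions, wider in Si1235, and in 17.2%, narrower.

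The kept regions with the widest gaps on the log scale were not at promoters on the wider side. A region at chr18:70423116-70424712, in intergenic DNA 92917 bp from SOCS6 (a suppressor of cytokine signalling), was covered over 1413 and 1397 bp in Si1235 and over 265 and 248 bp in NC1235. Regions inside CLDN16 (a tight junction claudin, chr3:190357077-190358841) and MAML2 (chr11:96306638-96308253) were covered over 1350 and 1765 bp and over 1616 and 966 bp in Si1235. In NC1235 the same regions were covered over 339 and 341 bp and over 251 and 272 bp. On the narrower side the promoters of SAMD9 and IFI44 led, with 324 and 354 bp and 289 and 375 bp in Si1235, against 1560 and 1504 bp and 1653 and 1567 bp in NC1235. A region at chr6:81786278-81788202, in intergenic DNA 33597 bp from TENT5A, had 270 and 383 bp in Si1235 and 1515 and 1346 bp in NC1235.

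Regions with a peak in both libraries of 1 arm and neither of the other were mostly outside promoters. Of the 1615 found in Si1235 alone, 87 were at promoters, 211 in flanks, 661 in gene bodies and 656 between genes. Of the 2780 found in NC1235 alone, 98 were at promoters, 259 in flanks, 1120 in gene bodies and 1303 between genes. As a share of all regions of their compartment, those found in Si1235 alone made up 0.61% at promoters and 2.95% between genes, and those found in NC1235 alone 0.69% and 5.86%. Within replicate 1 alone, 3.27% of promoter regions had a peak in Si1235 only and 2.94% in NC1235 only, while between genes these shares were 17.1% and 24.2%. Within replicate 2, they were 3.11% and 3.44% at promoters and 16.3% and 28.5% between genes. Leaving out 1 library raised the count of regions found in Si1235 alone to between 2271 and 6689, and that in NC1235 alone to between 3700 and 9016, since fewer lists then had to agree. Regions found in Si1235 alone had a median width of 485 bp and those in NC1235 alone of 486 bp, while kept regions, merged over 4 lists, had 1268 bp. In the sites found in Si1235 alone, H3K27ac peaks were present in 50.0% and 48.8% of sites in Si1235 and 44.7% and 45.3% in NC1235. In the sites found in NC1235 alone they were present in 36.9% and 36.1% of sites in Si1235 and in 43.8% and 46.1% in NC1235.

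Cover of promoter windows, taken gene by gene over 1 kb each side of the start, was higher in Si1235 more often than lower. Among 17447 windows with a mean cover of at least 5%, limma called 0 (0.00%) at an adjusted p under 0.05, the lowest adjusted p being 0.60. At an unadjusted p under 0.05 there were 691 higher and 351 lower. The arms did not overlap in 3634 windows higher in Si1235 (20.8%) and in 1879 lower (10.8%), and the median difference was 1.23 points. Windows were grouped by the CpG dinucleotides in the 300 bases of their RefSeq promoter. In the quartile with the fewest, with a median of 9 CpG, 19.1% were higher and 16.3% lower. In the quartile with the most, with a median of 40, 24.5% were higher and 6.06% lower. Their median cover was 82.2% and 75.1% in Si1235 and 78.8% and 72.8% in NC1235. With H3K27ac absent the shares were 20.9% higher and 10.4% lower. Where it covered less than 50% of the window they were 18.3% and 13.1%, and where it covered at least 50% they were 21.7% and 10.1%. No test compared these splits.

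The KITLG window, whose gene encodes stem cell factor, the ligand of the receptor KIT, was covered by 87.2% and 88.0% in Si1235 and by 38.0% and 26.8% in NC1235. The UBTF window, whose product drives transcription of ribosomal RNA genes by RNA polymerase I, had 100% and 81.9% in Si1235 and 33.5% and 27.4% in NC1235. PPIA, the prolyl isomerase cyclophilin A, had 89.6% and 76.2% in Si1235 and 31.4% and 30.1% in NC1235. Each of these 3 windows was covered over most of its length in both Si1235 libraries and over the smaller part of it in both NC1235 libraries. ID3, an inhibitor of helix-loop-helix transcription factors, had 98.2% and 65.0% in Si1235 and 23% and 14.6% in NC1235. WNT4, a Wnt ligand, had 87.5% and 71.7% in Si1235 and 39.6% and 29.2% in NC1235. The replicates of an arm stood closer to each other than the arms did in each of them. SDC3 (syndecan-3) and KLF7 (a Krüppel-like transcription factor) were also among the widest gaps on the higher side. They had 72.1% and 55.4%, and 72.1% and 71.2%, in Si1235, against 23.9% and 21.8%, and 32.1% and 40.2%, in NC1235. The starts used for UBTF, SDC3 and KLF7 lie inside these genes, so their windows may not describe other starts.

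On the lower side IFI44, an interferon-induced gene, had 14.4% and 18.8% in Si1235 and 82.2% and 78.3% in NC1235. SAMD9, an interferon-responsive restriction factor of poxviruses, had 16.2% and 17.7% in Si1235 and 78.0% and 76.0% in NC1235. CLCA2, an adhesion protein induced by p53, had 23.6% and 0% in Si1235 and 67.0% and 92.3% in NC1235. The CLCA2 values of an arm spread more widely than those of the 2 genes before it. H2AC8, 1 of the many genes for canonical H2A, had no cover in either Si1235 library and 56.6% and 41.9% in NC1235. H2A genes occur in near-identical copies, and the sources used here do not say how reads that match several of them were placed, so this value is uncertain. P2RX2, an ATP-gated ion channel, likewise had no cover in Si1235 and 41.8% and 40.4% in NC1235. The starts of P2RX2 and of GBP2 below were placed from the acetylation marks H3K27ac and H3K9ac. This can pick the wrong end of a gene, so these windows may not be at the promoter. LATS1, a kinase of the Hippo pathway, had 12.8% and 1.55% in Si1235 and 46.5% and 43.2% in NC1235. The start used for LATS1 lies inside the gene, so its window may not describe other starts of the gene. TXNIP, an inhibitor of thioredoxin, had 48.4% and 30.9% in Si1235 and 76.2% and 77.9% in NC1235. GBP2, an interferon-induced GTPase, had 51.9% and 46.9% in Si1235 and 83.2% and 79.2% in NC1235. In all of these the arms did not overlap. None of the windows described here passed limma, with adjusted p between 0.60 and 0.72.

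**Figure D5:**
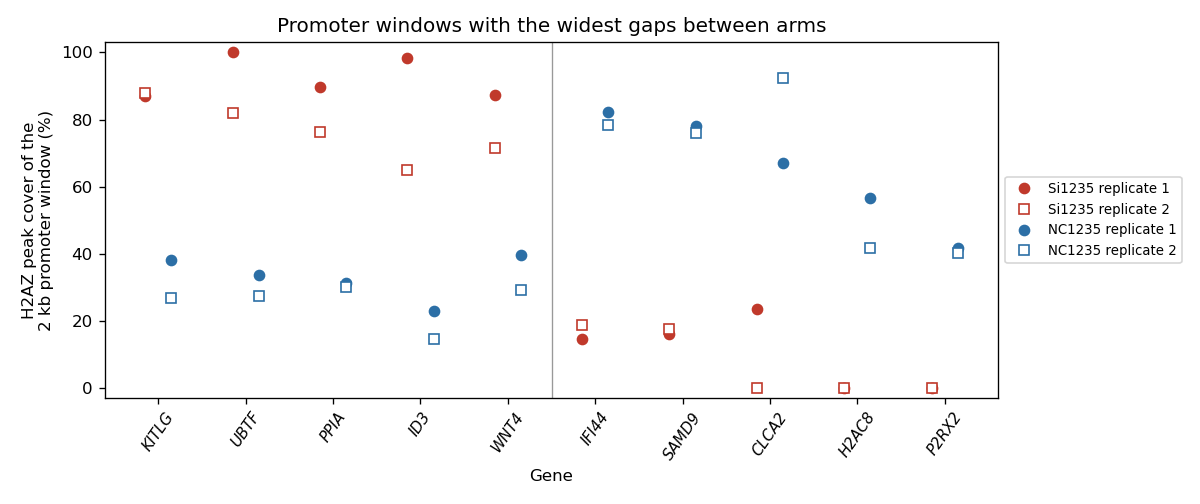
Percent of the promoter window covered by H2AZ peaks for the 5 coding genes with the widest gaps between arms in each direction, the higher ones on the left and the lower ones on the right, with 1 point per library (circles replicate 1, squares replicate 2). In each gene the 2 arms do not overlap. KITLG stands at 87.2% and 88.0% in Si1235 against 38.0% and 26.8% in NC1235.

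The sequence features printed above were counted over all windows with a gap between the arms of at least 20 points, a limit set after the values were seen. There were 81 such windows higher in Si1235, with a median of 19 CpG in 300 bases, and 70 lower, with a median of 3, against 26 over all tested windows with a sequence. A match to the GAAA element printed above, on either strand, lay within the 250 bases upstream in 6 of the 48 lower windows with a sequence (12.5%). Among the 66 higher ones it lay in 3 (4.55%). The 6 include IFI44 and SAMD9 themselves, and all these windows were picked by their H2AZ values. The counts are therefore no independent test of the element. The share was 2.30% of all 13959 tested windows with a sequence and 3.07% of the 27194 promoters in the table. The median difference in H3K27ac cover was 0 in both sets.

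Promoter flanks, from 1 to 5 kb on each side of the start, were also higher in Si1235 more often than lower. Of 7481 windows tested, limma called 0 (0.00%) at an adjusted p under 0.05, with 270 higher and 232 lower at an unadjusted p under 0.05. The arms did not overlap in 21.0% of windows, higher in Si1235, and in 14.2%, lower. The widest gap on the higher side was at NFIB, a transcription factor gene on chromosome 9, with 33.3% and 33.6% in Si1235 and 16.3% and 10.6% in NC1235 (adjusted p = 0.45 by limma). The promoter window of NFIB was covered by 100% in both Si1235 libraries and by 91.4% and 100% in NC1235. The gap thus lay outside that window. VAV3, a guanine nucleotide exchange factor, had 31.9% and 29.5% in Si1235 and 12.7% and 5.75% in NC1235. The starts used for NFIB and VAV3 lie inside these genes, so their windows may not describe other starts. SH3RF3, a scaffold and ubiquitin ligase gene, had 21.6% and 23.02% in Si1235 and 5.18% and 0% in NC1235, in a flank shared with its antisense partner SH3RF3-AS1. GSTK1 (a glutathione transferase) and HSPA5-DT (the divergent transcript of the gene for the chaperone BiP) had 15.3% and 13.7%, and 12.1% and 11.8%, in Si1235 and no flank cover in NC1235. On the lower side, KYNU, the enzyme kynureninase, had 3.25% and 1.98% in Si1235 and 17.3% and 16.4% in NC1235. The divergent pair ANLN (anillin, needed for cytokinesis) and MATCAP2 had 17.0% and 14.4%, and 23.2% and 20.6%, in Si1235. In NC1235 they had 33.6% and 29.6%, and 39.2% and 34.6%. KRT6A, a keratin, had 5.60% and 0% in Si1235 and 18.0% and 17.9% in NC1235. ANGPT1 had 6.89% and 5.14% in Si1235 and 20.8% and 17.5% in NC1235, on the same stretch of chromosome 8 as the lower windows above. The starts of KRT6A and ANGPT1 were placed from acetylation marks and may be at the wrong end of the gene.

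Gene bodies of coding and lncRNA genes together were lower in Si1235 more often than higher. Of 3714 such gene bodies with a mean cover of at least 1%, limma called 0 (0.00%) at an adjusted p under 0.05. At an unadjusted p under 0.05 there were 93 higher and 185 lower. The arms did not overlap in 15.4%, higher in Si1235, and in 19.2%, lower. With coding genes alone the numbers without overlap were about equal, with 408 of 2472 bodies higher and 404 lower. At an unadjusted p under 0.05 by limma, 66 of these coding bodies were higher and 93 lower. Among coding genes, CDA, cytidine deaminase, had the widest gap, at 1.84% and 3.25% in Si1235 and 16.1% and 13.0% in NC1235 (adjusted p = 0.17 by limma). TYRP1, an enzyme of melanin synthesis, had 15.1% and 11.4% in Si1235 and 24.7% and 24.8% in NC1235. HNRNPH1, an RNA-binding splicing factor, had 3.91% and 4.25% in Si1235 and 7.50% and 7.36% in NC1235. On the higher side, FBP1, a gluconeogenic phosphatase, had 6.47% and 6.70% in Si1235 and 2.02% and 2.67% in NC1235. AKR1B1, aldose reductase, had 27.5% and 23.2% in Si1235 and 18.7% and 19.1% in NC1235. ARMC12 and RBBP8NL had 5.25% and 4.63%, and 4.67% and 3.61%, in Si1235 and no cover in NC1235. Their starts were placed from acetylation marks, so these windows may include the promoter.

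Promoter windows of the machinery that handles H2A.Z were mostly alike between the arms. All 26 genes of that list were tested, 0 were called by limma, and the arms did not overlap in 6 that were higher in Si1235 and 1 that was lower, which as shares (23.1% and 3.85%) stand beside 20.8% and 10.8% over all windows. KAT5, the acetyltransferase TIP60 of the EP400 complex, had 82.8% and 86.0% in Si1235 and 63.9% and 61.9% in NC1235. ZNHIT1, a subunit of the SRCAP complex, had 97.4% and 85.0% in Si1235 and 81.7% and 77.2% in NC1235. ACTR8, a subunit of the INO80 remodeller, had 65.5% and 59.1% in Si1235 and 73.3% and 79.0% in NC1235. H2AZ1 itself had 84.6% and 82.7% in Si1235 and 100% and 80.9% in NC1235, and H2AZ2 had 71.2% and 77.0% in Si1235 and 85.3% and 67.2% in NC1235, both with overlapping arms.

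The 33 genes of replication origin licensing and firing belong to a process the series title names. Without overlap, 2 of their windows were higher in Si1235 and 6 lower (6.06% and 18.2%, against 20.8% and 10.8% of all windows). These gaps were narrow, at 0.20 (CDC6) to 4.80 points (CDC7) in the 6 and 1.20 (GINS4) and 2.85 (GINS2) in the 2. GINS2, of the replicative helicase, had 79.4% and 72.3% in Si1235 and 69.5% and 62.5% in NC1235. ORC3, of the origin recognition complex, had 82.0% and 67.4% in Si1235 and 84.2% and 85.6% in NC1235. ORC2 had 86.6% and 65.1% in Si1235 and 68.8% and 66.2% in NC1235, and MCM5 had 91.7% and 60.0% in Si1235 and 89.8% and 82.2% in NC1235. In both genes 1 Si1235 library thus lay on each side of the NC1235 values. The start of MCM5 was placed from acetylation marks and may be at the wrong end of the gene. The median difference between the arm means of the list was 1.30 points, against 1.23 over all windows. Within replicates 1 and 2 the list's medians were -0.30 and -0.05 points, against 1.30 and 0.65 over all windows.

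Of 40 tested interferon-induced genes, 4 were higher and 11 lower without overlap (10.0% and 27.5%, against 20.8% and 10.8% of all windows). The median difference of the list was -1.24 points, against 1.23 over all windows. The 11 included STAT2, a signal transducer of the interferon receptor, at 28.2% and 40.8% in Si1235 and 60.4% and 61.5% in NC1235. The 4 higher genes were SAMD9L, RIGI (a sensor of viral RNA), DDX60 and BST2 (the antiviral tether tetherin). DDX60 had 100% in both Si1235 libraries and 84.7% and 83.5% in NC1235. BST2 had 50.2% and 26.6% in Si1235 and 26.3% and 0% in NC1235, so its arms were barely apart. IFI27 had 49.7% and 26.4% in Si1235 and 30.0% and 12.8% in NC1235, with overlap. Of 61 tested cytosolic ribosomal protein genes, 9 were higher and 11 lower (14.8% and 18.0%, against 20.8% and 10.8% of all windows). RPL27A had 53.4% and 49.0% in Si1235 and 28.0% and 28.2% in NC1235. RPL18 had 49.9% and 30.6% in Si1235 and 65.1% and 60.9% in NC1235, and RPL13 had 54.0% and 23.9% in Si1235 and 60.2% and 56.8% in NC1235. Genes of this family share sequence with many processed pseudogenes, so their values are uncertain. No member of either list was called by limma, nor was any in the lists that follow.

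Among 19 tested basal epithelial markers, 8 were higher and 0 lower without overlap (42.1% and 0.00%, against 20.8% and 10.8% of all windows). The median difference was 5.48 points, against 1.23 over all windows, and within replicates 1 and 2 it was 4.50 and 3.60 points. Among the 8 higher genes the arms were 0.60 points apart at ACTA2, 1.80 at ITGA6, 2.25 at EGFR and 3.90 at CAV1. The gaps of the others ran from 10.9 points (LAMB3) to 15.95 (KRT5). ITGB4, a hemidesmosome integrin, had 79.6% and 65.4% in Si1235 and 53.6% and 29.9% in NC1235. KRT5, a basal keratin, had 25.8% and 15.9% in Si1235 and no cover in NC1235, so it passed the minimum cover through Si1235 alone. With a window of 2.5 kb each side the KRT5 difference was -3.52 points. KRT6A had cover in 1 library alone, NC1235 replicate 1, at 24.2%, and LAMA3 (a laminin chain) had 17.2% and 0% in Si1235 and 12.8% and 16.9% in NC1235. Of 18 luminal and epithelial markers, 5 were higher and 1 lower (27.8% and 5.56%, beside the same shares of all windows). CDH1, E-cadherin, had 80.7% and 41.4% in Si1235 and 37.8% and 30.5% in NC1235. GRHL2, an epithelial transcription factor, had 94.8% and 94.2% in Si1235 and 88.3% and 74.3% in NC1235. The starts of ITGB4, KRT6A, CDH1 and GRHL2 were placed from acetylation marks and may be at the wrong end of the gene. MLPH and XBP1 (a factor of the unfolded protein response) had the largest differences downward, at 76.2% and 70.2%, and 71.5% and 83.9%, in Si1235. In NC1235 they had 92.2% and 74.0%, and 91.5% and 82.2%, so their arms overlapped. Of 31 tested developmental regulators often held by Polycomb, 9 were higher and 3 lower (29.0% and 9.68%, near the shares of all windows). NEUROG2, a neurogenic factor, had 92.5% and 87.8% in Si1235 and 87.3% and 53.4% in NC1235. NKX2-2, a homeobox factor, had 43.5% and 24.1% in Si1235 and 21.2% and 11.3% in NC1235. SOX2, a pluripotency factor, had 87.5% and 75% in Si1235 and 94.8% and 87.8% in NC1235, and DLX2 had 91.8% and 77.7% in Si1235 and 91.1% and 92.2% in NC1235.

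Several defining markers of other cell types had no cover at the starts used here. For CD3E, SPI1, PECAM1, CDH5, ESAM, COL1A1, FAP, TWIST1, KRT18 and KRT19 that start was placed from the acetylation marks H3K27ac and H3K9ac. This can pick the wrong end of a gene, so their values may not describe the promoter. Of 12 immune markers with a start, 4 passed the minimum, with 0 apart in either direction. Over all windows 20.8% were higher and 10.8% lower without overlap. PTPRC (CD45) and CD14 had 0% in all 4 libraries. CD3E had 56.8% and 28.5% in Si1235 and 54.2% and 57.6% in NC1235, CSF1R had 43.3% and 50.1% in Si1235 and 55.2% and 42.4% in NC1235, SPI1 had 51.9% and 46.6% in Si1235 and 52.1% and 39.5% in NC1235, and CD8A lay between 95.8% and 99.6% in all. Of 10 endothelial markers with a start, 3 passed and 2 of them were higher in Si1235 (66.7%, beside 20.8% of all windows). The 2 were KDR and ESAM, with gaps between the arms of 2.30 and 0.30 points. PECAM1, CDH5 and ERG had 0%. KDR (a receptor of vascular endothelial growth factor) had 70.7% and 63.0% in Si1235 and 60.3% and 60.7% in NC1235, and ROBO4 had 53.6% and 18.4% in Si1235 and 23.8% and 19.0% in NC1235. Of 9 fibroblast markers with a start, 6 passed and 3 were higher (50.0%, beside the same 20.8%). Their gaps were 13.4 points at FAP, 1.60 at COL1A1 and 0.10 at TWIST2. PDGFRB had 0%. FAP had 100% in both Si1235 libraries and 86.6% and 81.9% in NC1235, S100A4 had 48.1% and 53.0% in Si1235 and 49.5% and 12.8% in NC1235, and TWIST1 had 69.0% and 70.5% in Si1235 and 70.2% and 72.1% in NC1235. Of the luminal keratins, at the starts used here, KRT8 was at or under 0.70% and KRT19 at 0% in all 4 libraries. KRT18 had 16.5% and 0% in Si1235 and 18.1% and 15.8% in NC1235. These values do not cover other starts of the same genes.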

How the data were processed

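H2AZ ChIP-seq peak lists, 1 per library and none pooled, were analysed for 2 Si1235 and 2 NC1235 libraries of HCC1954 cells. Per the submitters' processing notes, reads were processed with Bowtie2 2.2.9 and MACS2 on hg38, and HTSeq 2.0.3 and DESeq2 1.22.2 are listed with no stated role. The MACS2 settings and control are unstated. The deposited lists give the authors' fold enrichment, a linear ratio of a peak's summit over background, and −log10 values of its p-value and q-value, of which the lowest −log10 q was 2.00. These values served only to rank peaks, to select peaks for a stricter setting reported below, and to solve for the background level. Reported values rest on peak positions, so the depth behind them is known only indirectly and no read counts were used.

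Peaks on chromosomes 1 to 22 and X were intersected with RefSeq genes (GRCh38.p14, the assembly of hg38). Of 38147 protein-coding or lncRNA genes whose symbol was unique, 27194 had a start by strand from the promoter table. That start was the outer end of the gene in 88.8% of them, and a window can miss other starts. For 4191 more, among them every placed gene of chromosome 8, the start was the end with more H3K27ac and H3K9ac cover, which picked the right end in 89.6% of 15242 genes of known strand. The remaining 6762 had no start, so distances to starts can be too long. Peaks were assigned by their midpoint, and covered bases base by base, to promoter, flank, gene body or intergenic DNA, in that order of precedence.

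The minimum mean cover was 5% for promoters and flanks, 1% for bodies of coding and lncRNA genes of at least 10 kb, and 0.5% for 100 kb windows. Cover of windows and log2 widths of kept regions were tested with limma 3.58.1 in R 4.3.3, with an intensity trend and no block. Benjamini-Hochberg adjustment at 0.05 ran over all windows of a kind. Tested on simulated windows, this fit recovered 96 of 200 promoter windows changed by 42.6 points, with 6 false calls. The other calculations used Python 3.11.15 with numpy 2.4.6 and pandas 2.3.3. Single values were compared with an exact permutation test. Genes were named by the gap between the arms (up to 8 in each direction per window kind), 5 windows or regions in each direction were eligible, and of each list the 2 members with the greatest difference in each direction. Not all eligible ones are reported here. The members and lists were chosen with earlier results of these data known.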

Additional observations from a re-analysis of the deposited data

How the results depend on the processing

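The promoter, flank, gene body and intergenic shares of cover and the median distance to gene starts kept their direction with peaks of −log10 q of at least 5, equal numbers of top peaks, coding genes alone, starts given by strand alone, and without each library in turn. The 4 shares also kept it when peaks were counted in place of bases, and the promoter and flank shares with promoters of 2.5 kb each side, which leave the other shares as they were. The sizes varied more. The flank difference was 0.60 points, but 0.05 with promoters of 2.5 kb and 0.30 in shares of peaks. The gene body difference was -1.19 points, but -0.37 with coding genes alone, -0.68 with equal numbers of peaks and -0.62 in shares of peaks. The promoter difference was 2.65 points, but 1.58 with equal numbers of peaks. The median distance of H2AZ peaks to the nearest gene start differed by -1686 bp, but by -489 bp with equal numbers of peaks and by -3727 bp with coding genes alone. Without 1 library the promoter share differed by 0.10 to 5.19 points, the flank share by 0.23 to 0.97, the gene body share by -2.16 to -0.21, the intergenic share by -3.26 to -0.86, the share of peaks beyond 100 kb by -1.98 to -0.89, and the median distance by -3316 to -55 bp. The median peak width changed sign with equal numbers of top peaks, to -30 bp, and ranged from -22 bp without NC1235 replicate 2 to 45 bp without NC1235 replicate 1. The covered length ranged from -5.87 to 3.13 Mb in the same way, the lowest without Si1235 replicate 1 and the highest without Si1235 replicate 2.

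Of regions at promoters found in Si1235 alone, there were 52 with coding genes alone, 185 with promoters of 2.5 kb, and 165 when a peak had to cover at least 50% of a region. Of those found in NC1235 alone there were 37 and 221 under the first 2 of these settings. Without 1 library, 2271 to 6689 regions were found in Si1235 alone, 130 to 365 of them at promoters, and 3700 to 9016 in NC1235 alone, 133 to 350 of them at promoters. Every such count was above the one from 4 libraries, because fewer lists had to agree. Windows of 1 Mb that lay higher in Si1235 numbered 43 with −log10 q of at least 5 and 112 with equal numbers of top peaks.

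The limma counts of 0 held under each alternative except quantile normalization of the 100 kb windows, which gave 59 higher and 120 lower, and the cause was not tested. With the replicate number as a block, limma called 0 windows and regions of each kind, with the lowest adjusted p at 0.12 in the 100 kb windows. Same-numbered libraries of both arms deviated together from their arm's mean, with correlations across windows of 0.18 for promoters, 0.20 for flanks, 0.21 for gene bodies, 0.41 for 100 kb windows and 0.11 for kept widths. With 2 pairs this does not establish a pairing beyond the shared number.

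Of 926 values of 83 named promoter, flank and gene body windows under these alternatives, 17 had the other direction and none passed the threshold. With −log10 q of at least 5, LAMA3 differed by 0.15 points and CSF1R by 5.47, and with equal numbers of top peaks LAMA3 also by 0.15. With promoters of 2.5 kb, KRT5 differed by -3.52 and TWIST1 by 4.51, and with quantile normalization CD8A by -0.42. When 1 library was left out the differences ranged from -16.4 to 2.73 for H2AZ1, from -26.0 to 5.67 for MCM5, from -2.40 to 19.1 for ORC2, from -14.9 to 2.40 for LAMA3, from -13.98 to 0.17 for DLX2, from -27.4 to 0.90 for CD3E, from -8.55 to 4.35 for CSF1R, from -0.53 to 3.23 for CD8A, from -2.85 to 9.75 for SPI1 and from -3 to 32.2 for ROBO4. The direction turned without replicate 1 of NC1235 for H2AZ1 and CSF1R, replicate 2 of NC1235 for CD8A and SPI1, replicate 1 of Si1235 for ORC2, ROBO4 and CSF1R, and replicate 2 of Si1235 for MCM5, LAMA3, DLX2 and CD3E. Depth is known only through the solved background, and a peak list cannot show H2AZ below the calling threshold.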

Other observations

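The lists of the other marks allow the same count of peaks by distance. Within 1 kb of a gene start, H3K27ac peaks were more numerous in Si1235 by 0.95% and 0.60% in replicates 1 and 2, and from 100 to 500 kb they differed by -4.46% and -9.46%. Beyond 500 kb there were 177 and 174 H3K27ac peaks in Si1235 and 186 and 215 in NC1235. H3K9ac, with 1 library per arm and so no replicate check, differed by 0.65% within 1 kb and by -11.0% beyond 500 kb. H3K36me3, which lies over transcribed gene bodies, had more peaks in Si1235 at each distance up to 500 kb, by 4.18% to 18.2% in replicate 1 and 11.8% to 21.4% in replicate 2. No test compared the marks.

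Peaks of the single ChIRP library, of the NC1235 arm, overlapped 9.98% of the H2AZ regions found in all 4 libraries, 6.75% of those found in Si1235 alone and 6.83% of those found in NC1235 alone. Regions found in 1 arm alone were also narrower than the others, with medians of 485 bp in Si1235 alone and 486 bp in NC1235 alone, against 1268 bp. H3K36me3 peaks of any library overlapped less than 0.30% of all H2AZ regions.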
